A study of Homo sapiens with 4 samples.

Results

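The replication-dependent histone genes, which encode the linker histone H1 and the core histones H2A, H2B, H3 and H4 that package newly made DNA, were described here through open chromatin at their gene ends. They were chosen by name, as the protein-coding RefSeq genes with a clustered-histone symbol (H1-1 to H1-6 and the H2AC, H2BC, H3C and H4C series). The naming rule uses no measured value, but earlier results of these data were known when the genes were chosen. There were 70 such genes among 20037 protein-coding genes: 6 of H1, 17 of H2A, 19 of H2B, 13 of H3 and 15 of H4. Of these, 32 lie on chromosome 6 between H1-1 and H4C8 (26017032 to 26285534), 21 lie farther along chromosome 6 between H2BC11 and H2BC17 (27132316 to 27893891), and 11 lie on chromosome 1 between H2BC18 and H2AC21 (149782689 to 149887965). The other 6 are the pair H2AC1 and H2BC1 on chromosome 6, the pair H2AC25 and H2BC26 on chromosome 1, H4C16 on chromosome 12 and H2BC12L on chromosome 21.

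The study used ATAC-seq, in which the Tn5 transposase cuts and tags accessible DNA. All libraries came from 786-O, a human line established from a clear cell renal cell carcinoma and known to lack functional VHL, so every value below concerns 1 tumour line. There were 2 libraries of cells given 5 µM ACSS2i, named for the acetyl-CoA synthetase ACSS2, for 24 h (ACSS2i 1 and ACSS2i 2), and 2 libraries of cells given the same volume of DMSO for 24 h (DMSO 1 and DMSO 2). The labels do not say whether these were separate cultures, so the spread between them may be technical. ACSS2 makes acetyl-CoA from acetate, and acetyl-CoA is the donor for histone acetylation.

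Replication-dependent histone genes are transcribed mainly in S phase, when the doubling genome needs new nucleosomes. Most have no introns, and their transcripts end in a stem-loop bound by SLBP instead of a poly(A) tail. The clusters sit in histone locus bodies, nuclear compartments organised by NPAT, which cyclin E and CDK2 phosphorylate on entry into S phase. Many H2A and H2B genes are arranged as head-to-head pairs that share the DNA between their starts, and different histone types carry different promoter elements.

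Promoter sequences, from RefSeq on GRCh38.p14, were at hand for 64 of the 70 genes as windows of 250 bases before the start and 50 bases from it. Printed here are the 170 bases before the start and the first 30 bases of the gene, 5′ to 3′, for the member of each type whose accessible region ranked highest in its weakest library. They show the elements at the genes of the highest-ranking regions; the printed promoters of H1-4 and H3C1 were themselves in no ACSS2i 1 peak. Capitals mark the TATA box (TATAAA), the motif known as the CCAAT box, the octamer (ATTTGCAT) and, known from H1 promoters, the H1 box (AAACACA), searched on both strands, so a reverse complement counts as well; none of the 4 is contained in another, though matches can abut or overlap. The windows are H1-4 (chr6:26156159-26156358, plus strand), H2AC11 (chr6:27132873-27133072, plus strand), H2BC11 (chr6:27132766-27132965, minus strand), H3C1 (chr6:26020281-26020480, plus strand) and H4C4 (chr6:26189083-26189282, minus strand).
H1-4: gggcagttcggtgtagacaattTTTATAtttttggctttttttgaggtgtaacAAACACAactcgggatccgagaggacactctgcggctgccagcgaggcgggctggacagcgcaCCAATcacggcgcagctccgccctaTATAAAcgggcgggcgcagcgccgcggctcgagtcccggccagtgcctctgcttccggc
H2AC11: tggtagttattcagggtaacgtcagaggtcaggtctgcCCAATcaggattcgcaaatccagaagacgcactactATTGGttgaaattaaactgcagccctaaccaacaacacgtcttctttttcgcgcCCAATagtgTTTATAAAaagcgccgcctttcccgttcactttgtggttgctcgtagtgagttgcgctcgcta
H2BC11: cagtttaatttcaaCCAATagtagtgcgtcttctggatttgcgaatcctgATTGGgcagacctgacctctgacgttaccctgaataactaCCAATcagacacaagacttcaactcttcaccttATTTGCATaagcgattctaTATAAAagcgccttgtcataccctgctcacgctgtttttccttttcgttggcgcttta
H3C1: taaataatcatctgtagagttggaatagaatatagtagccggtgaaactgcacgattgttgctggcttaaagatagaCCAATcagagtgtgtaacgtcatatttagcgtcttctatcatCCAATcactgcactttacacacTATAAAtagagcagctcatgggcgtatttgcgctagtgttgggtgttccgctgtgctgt
H4C4: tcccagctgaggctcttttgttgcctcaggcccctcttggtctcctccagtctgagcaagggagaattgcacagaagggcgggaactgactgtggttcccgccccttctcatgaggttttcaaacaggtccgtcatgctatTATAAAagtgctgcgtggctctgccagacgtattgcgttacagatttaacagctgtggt

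A second set shows, for each type, a member with no peak in any library or none in the ACSS2i libraries. H1-6, H2BC6 and H4C6 had no peak at either gene end in any library, and H2AC13 and H3C7 had one in both DMSO libraries and in no ACSS2i library. The windows are H1-6 (chr6:26108106-26108305, minus strand), H2AC13 (chr6:27808003-27808202, plus strand), H2BC6 (chr6:26183591-26183790, plus strand), H3C7 (chr6:26250606-26250805, minus strand) and H4C6 (chr6:26240223-26240422, plus strand). H2BC6 holds the octamer and CCAAT, as H2BC11 does, and H1-6 holds CCAAT and the H1 box, so these letters alone do not separate the sets.
H1-6: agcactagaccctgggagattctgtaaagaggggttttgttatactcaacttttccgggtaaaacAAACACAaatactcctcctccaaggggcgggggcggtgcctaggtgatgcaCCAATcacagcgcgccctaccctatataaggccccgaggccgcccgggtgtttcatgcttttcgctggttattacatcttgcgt
H2AC13: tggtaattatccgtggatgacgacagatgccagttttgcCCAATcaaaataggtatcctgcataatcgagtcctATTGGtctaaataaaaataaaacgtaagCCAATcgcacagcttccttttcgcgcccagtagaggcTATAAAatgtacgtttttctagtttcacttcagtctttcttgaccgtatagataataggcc
H2BC6: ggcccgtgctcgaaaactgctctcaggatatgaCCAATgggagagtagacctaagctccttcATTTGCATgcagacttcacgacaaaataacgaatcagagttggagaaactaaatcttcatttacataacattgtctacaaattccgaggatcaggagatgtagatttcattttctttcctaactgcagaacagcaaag
H3C7: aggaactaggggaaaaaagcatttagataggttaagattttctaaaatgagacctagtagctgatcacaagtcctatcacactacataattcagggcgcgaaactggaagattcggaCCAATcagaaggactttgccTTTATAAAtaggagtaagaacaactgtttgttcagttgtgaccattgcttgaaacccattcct
H4C6: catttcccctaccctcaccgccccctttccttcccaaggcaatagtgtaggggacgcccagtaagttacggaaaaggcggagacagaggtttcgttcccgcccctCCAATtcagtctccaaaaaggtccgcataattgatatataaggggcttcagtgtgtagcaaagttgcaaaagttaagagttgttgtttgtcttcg

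Elements were counted once per gene, and where a gene had more than 1 window a match in any of them counted. Among the 64 genes, TATAAA was found in 43 (67.2%, against 12.4% of the 15843 protein-coding genes with a window) and CCAAT in 54 (84.4%, against 42.1%). The octamer was found in 26 (40.6%, against 2.2%) and the H1 box in 9 (14.1%, against 5.83%). Counts by type differed most for the octamer, CCAAT and the H1 box. TATAAA was in 3 of 6 H1, 12 of 16 H2A, 12 of 18 H2B, 9 of 11 H3 and 7 of 13 H4 genes. The octamer, a binding motif of POU2F1, was in 14 of 18 H2B and 11 of 16 H2A genes. It was in 1 of 11 H3 genes, and in none of 13 H4 or 6 H1 genes. That H3 gene, H3C4, has a start 223 bp from that of H2BC7, as H2AC7 does, so its match can lie at the H2A start. CCAAT was in all 6 H1, 16 H2A, 18 H2B and 11 H3 genes but in 3 of 13 H4 genes. The H1 box was in 6 of 6 H1 genes. Head-to-head windows overlap, so the same letters can count for both genes of a pair.

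A gene was counted as having a peak where a peak lay within 1000 bp of either end of its RefSeq span; both ends were used because the gene table gives no strand. By that count, 31 and 40 of the 70 histone genes had a peak in ACSS2i 1 and ACSS2i 2, and 50 and 55 had one in DMSO 1 and DMSO 2. As shares these are 44.3% and 57.1% in the ACSS2i libraries and 71.4% and 78.6% in the DMSO libraries, against 32.5% and 40.7% (ACSS2i) and 52.6% and 60% (DMSO) of all protein-coding genes. The histone share thus stood above the share of all genes in each of the 4 libraries. The ACSS2i libraries averaged 35.5 genes and the DMSO libraries 52.5, a ratio of 0.676, with a two-sided exact permutation p of 0.333, the smallest that 2 against 2 libraries allow. Both ACSS2i libraries lay below both DMSO libraries, and so did the shares of all genes.

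**Figure D1:**
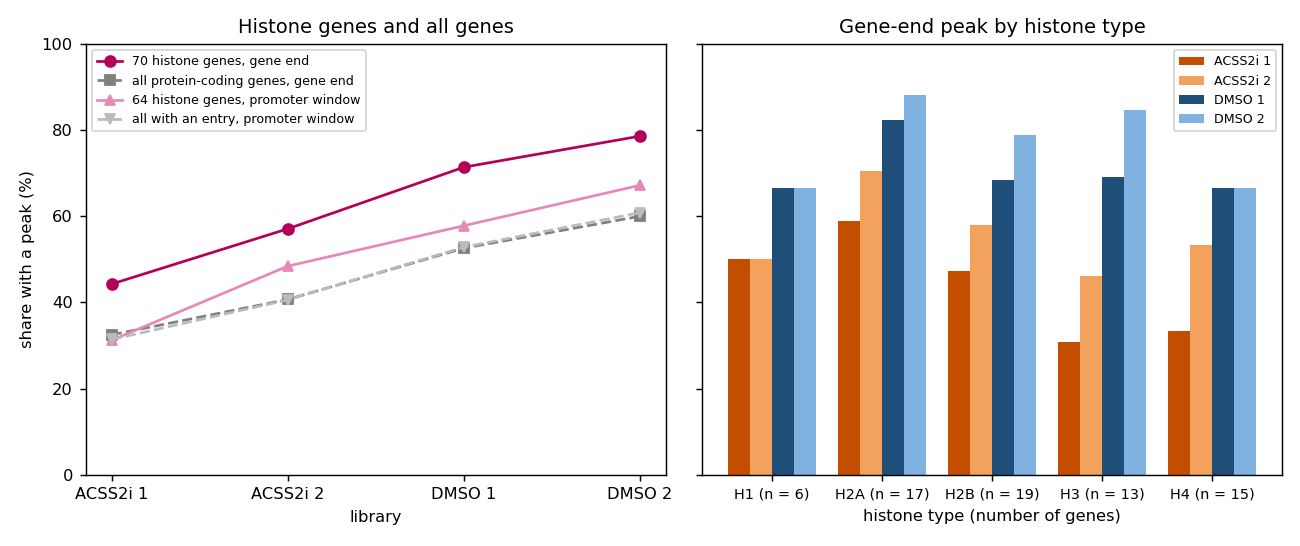
Left, share (%) of histone genes and of all protein-coding genes with a peak at a gene end or over the promoter window in each library (lines only join the libraries); right, share (%) of each histone type with a gene-end peak, 1 bar per library. Histone gene-end shares of 44.3% and 57.1% with ACSS2i, and 71.4% and 78.6% with DMSO, lie above those of all genes.

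The total of peaks moved with the groups. The ACSS2i lists held 16400 and 22044 peaks covering 8.27 and 12.9 Mb, and the DMSO lists 34696 and 50294 peaks covering 23.7 and 34.5 Mb. Read depth is unknown, since the lists give no read totals. Background coverage recovered from the peak statistics was 2.32 and 3.16 fragments in the ACSS2i libraries and 2.06 and 1.75 in the DMSO libraries. The longer lists were therefore those with the lower background coverage, and how much of the difference in histone peaks follows the length of the lists is taken up below. Renal epithelial markers had peaks in 5 and 7 of 9 genes in the ACSS2i libraries and 7 and 7 in the DMSO libraries, with none at PAX2 or KRT19. Of 12 immune, endothelial and fibroblast markers, none had a peak in either ACSS2i library or in DMSO 1, and 2 had one in DMSO 2.

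The presence of histone peaks was nested across libraries. Every one of the 55 genes with a peak in any library had one in DMSO 2, every gene with one in ACSS2i 2 had one in DMSO 1, and every gene with one in ACSS2i 1 had one in ACSS2i 2; the same order held for 95.1% of all genes with any peak. A peak in all 4 libraries was found for 31 members (44.3%, against 30.3% of all genes), in genome order H2BC21, H2AC20, H2AC21, H3C1, H4C1, H4C2, H3C2, H2AC4, H1-2, H4C3, H2BC4, H2AC6, H1-4, H2BC5, H4C4, H4C5, H2BC8, H2AC8, H3C8, H2BC10, H2BC11, H2AC11, H2BC12, H2AC12, H2AC15, H2BC15, H2AC16, H1-5, H3C12, H2AC17 and H2BC17. A peak in both DMSO libraries and ACSS2i 2 was found for 9 (H2BC18, H3C13, H2AC18, H4C15, H3C4, H2AC7, H2BC7, H4C8 and H4C16). In DMSO 2 alone, 5 had a peak (H2BC3, H3C3, H3C10, H2AC14 and H2BC14), 7.14% of members against 7.21% of all genes. No histone gene had a peak in an ACSS2i library and in neither DMSO library, where 0.0755% of all genes without a DMSO peak did. Of the 50 members that had one in DMSO 1 and DMSO 2, 31 kept one in both ACSS2i libraries (62%, against 58% of all such genes) and 10 had none in either (20%, against 18.9%), a share near that of all genes.

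Linker histones showed the same split. H1-2, H1-4 and H1-5 had a peak in all 4 libraries, H1-3 in the DMSO libraries alone, and H1-1 and the testis gene H1-6 in none. By core type, gene counts in ACSS2i 1 and ACSS2i 2, against DMSO 1 and DMSO 2, were 10 and 12 against 14 and 15 of 17 for H2A, and 9 and 11 against 13 and 15 of 19 for H2B. They were 4 and 6 against 9 and 11 of 13 for H3, and 5 and 8 against 10 and 10 of 15 for H4. Over all genes the shares were 32.5% and 40.7% against 52.6% and 60%. H2A and H2B genes, which together form the dimers at the nucleosome's flanks, had a peak in all 4 libraries in 10 of 17 and 9 of 19 cases. H3 and H4 genes, which form its central tetramer, had one in 4 of 13 and 5 of 15 cases. These H3 and H4 shares, 30.8% and 33.3%, were near the 30.3% of all genes, and those of H2A and H2B, 58.8% and 47.4%, were above it. No test of the difference between types was made, since genes of different types share peaks.

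Because neighbouring histone genes share peaks, the peaks were merged over libraries into 41 distinct regions, 25 of them near 2 or more members. In ACSS2i 1 and ACSS2i 2 there were 19 and 28 of these regions, and in DMSO 1 and DMSO 2 there were 35 and 38. The means were 23.5 against 36.5, a ratio of 0.644 (two-sided exact permutation p = 0.333). A count of regions over all genes is not given. Of all protein-coding genes, 6519 and 8161 had a gene-end peak in the ACSS2i libraries, against 10545 and 12013 in the DMSO libraries, so fewer peaks were not particular to histone genes. Of the 41, 19 were in all 4 libraries, 7 in ACSS2i 2 and both DMSO libraries, 7 in the DMSO libraries only and 5 in DMSO 2 only. The remaining 3 were 1 in DMSO 1 only, near H2BC4 and H2AC6, 1 in ACSS2i 2 and DMSO 1, near H3C4, and 1 in ACSS2i 2 only, near H2BC8 (chr6:26215072-26215355). That last region had a fold of 3.25 and 14 fragments at its summit; H2BC8 also had another region, in all 4 libraries.

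Strength is given below by 3 measures. The percentile is the rank of a peak's −log10 q among all peaks of its own library, with 100 the strongest. The fold is the authors' fold enrichment at the summit, and the fragment count is the pileup there, recovered from that fold and its −log10 p.

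The strongest histone region in its weakest library lay between H2BC11 and H2AC11 (chr6:27131642-27134588), at the start of the second chromosome 6 cluster. Its fragment counts were 30 and 47 in ACSS2i 1 and ACSS2i 2, against 60 and 92 in DMSO 1 and DMSO 2. Its percentiles were 90.2 and 98.0 in the ACSS2i libraries, against 94.1 and 88.6 in the DMSO libraries, and its folds were 7.28 and 9.76 against 7.97 and 8.93. Fragments were fewer in both ACSS2i libraries, while percentiles and folds of the groups overlapped. This is the region of the octamer, TATAAA and CCAAT elements printed for H2BC11 and H2AC11.

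Both leading H1 regions are in the first chromosome 6 cluster. The region shared by H1-4 and H2BC5 (chr6:26156060-26159576) had 25 and 38 fragments in the ACSS2i libraries, against 53 and 85 in the DMSO libraries, and percentiles of 77.5 and 88.2 against 83.0 and 81.3. The region of H1-2 (chr6:26054602-26056976) had 21 and 32 fragments in the ACSS2i libraries, against 39 and 64 in the DMSO libraries, and percentiles of 76.4 and 89.0 against 77.3 and 79.1. In both, the percentiles of the groups overlapped and the fragment counts did not. The H1-2 summits lay 1270 and 1316 bp past the gene's start in the ACSS2i libraries and 1068 and 1266 bp past it in the DMSO libraries, beyond the 3′ end of the 731 bp gene.

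Among H2A and H2B pairs, H2AC15 and H2BC15 (chr6:27836905-27839976) followed, with 19 and 36 fragments in the ACSS2i libraries, against 37 and 64 in the DMSO libraries. Their percentiles were 66.9 and 91.7 against 70.6 and 78.8. The pair H2BC4 and H2AC6 (chr6:26121184-26124519) had 26 and 39 fragments in the ACSS2i libraries, against 61 and 74 in the DMSO libraries. Its folds were 6.004 and 5.96 in the ACSS2i libraries, against 5.62 and 5.06 in the DMSO libraries, so fold was higher in both ACSS2i libraries although fragments were fewer. On chromosome 1, the region at H2BC21, H2AC20 and H2AC21 (chr1:149885415-149888558) had 25 and 40 fragments against 52 and 73, and percentiles of 65.9 and 86.7 against 78.7 and 67.5. Not all pairs overlapped in rank: H2BC12 and H2AC12 had percentiles of 66.0 and 70.2 in the ACSS2i libraries, below 78.6 and 79.6 in the DMSO libraries.

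Of the H3 and H4 regions, 2 led for each type, that of H3C1 and H4C1 counting for both. The H3C1 and H4C1 region (chr6:26020361-26022294) had 18 and 28 fragments in the ACSS2i libraries, against 33 and 44 in the DMSO libraries, and percentiles of 59.4 and 69.5 against 62.9 and 62.2. The H3C2 and H2AC4 region (chr6:26031584-26033986) had 15 and 30 fragments against 44 and 53, and its percentiles were 38.4 and 79.5 against 78.5 and 63.2. H4C4 (chr6:26188431-26189289) had 21 and 23 fragments in the ACSS2i libraries, against 35 and 45 in the DMSO libraries, and folds of 6.63 and 5.76 against 9.14 and 11.5, with no overlap in either. Among the regions whose groups did not overlap in rank, H4C3 had the widest gap, with percentiles of 41.7 and 15.8 in the ACSS2i libraries, against 75.3 and 69.3 in the DMSO libraries, and folds of 4.82 and 3.60 against 7.53 and 8.97.

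**Figure D2:**
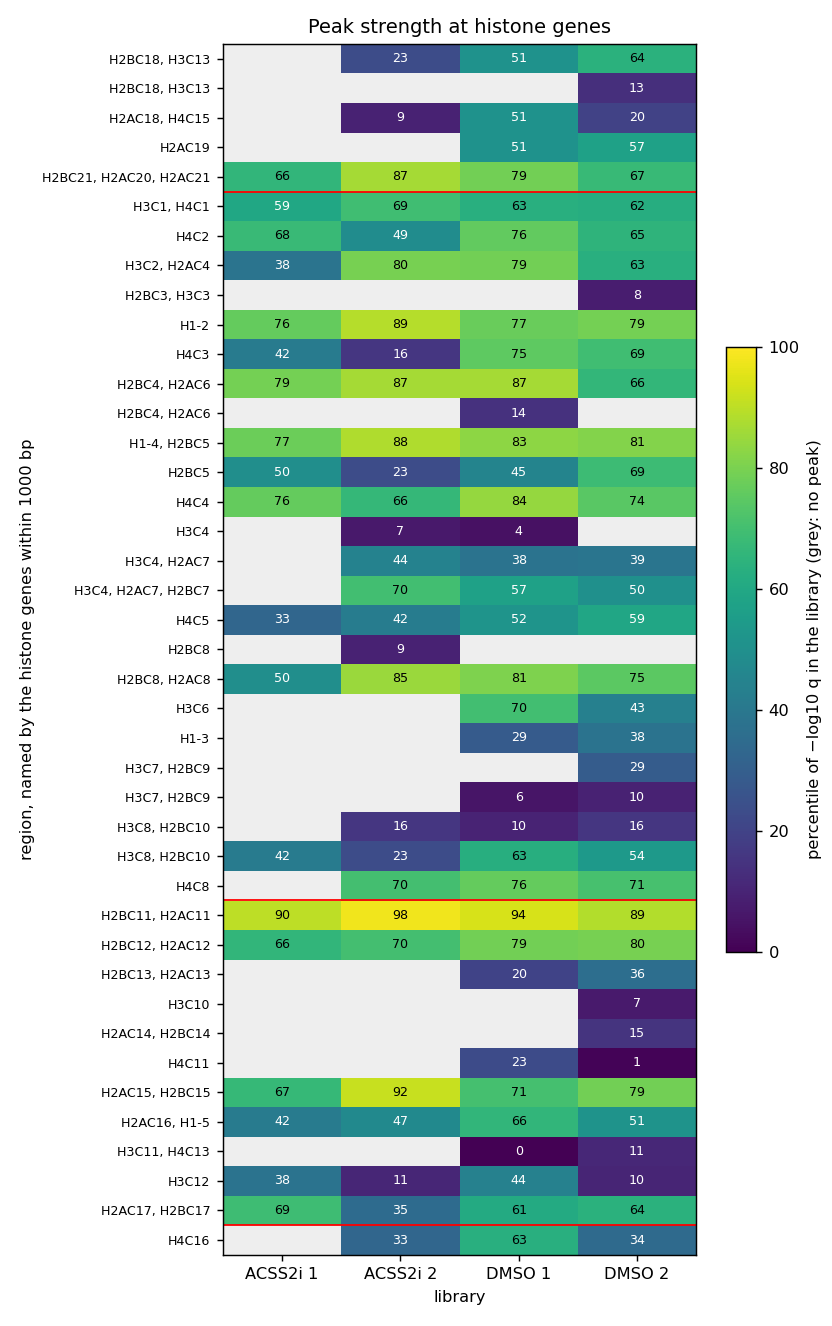
Percentile (colour and number) of −log10 q among the library's peaks for the 41 histone regions (rows, in genome order, with red lines between clusters) in the 4 libraries (columns); grey cells mark no peak. The region of H2BC11 and H2AC11 stands at 88.6 or above in all 4 libraries, and the regions in the DMSO libraries only stand mostly low.

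Over the 19 regions in all 4 libraries, the median percentile was 65.9 and 69.5 in the ACSS2i libraries, against 75.9 and 67.5 in the DMSO libraries. The library medians averaged 67.7 with ACSS2i and 71.7 with DMSO, a difference of -3.99 (two-sided exact permutation p = 0.667). The direction was not stable: the difference was 9.95 with percentiles over gene-end peaks alone and 0.26 without DMSO 1. It was 31.2 with lists of equal length, over 8 regions, and -8.19 with a −log10 q of at least 5, over 14 regions. At equal length the medians of all gene-end regions were 64.2 and 66.7 with ACSS2i, and 66.1 and 70.2 with DMSO. Among all 5238 gene-end regions in all 4 libraries the medians were 56.5 and 68.2 with ACSS2i, and 79.5 and 87.8 with DMSO. Both ACSS2i percentiles lay below both DMSO percentiles in 5 of the 19 histone regions (61% of all such regions) and above them in none (1.03%). The 5 are those of H4C3, H4C5, H3C8 with H2BC10, H2BC12 with H2AC12, and H2AC16 with H1-5. These counts are a description with no test.

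By type, with regions shared between types counted for each, the median percentile of the regions in all 4 libraries was 76.4 and 88.2 in the ACSS2i libraries, against 77.3 and 79.1 in the DMSO libraries, for 3 H1 regions. For 9 H2A regions it was 66.0 and 85.1 against 78.6 and 67.5, and for 10 H2B regions 66.5 and 85.8 against 78.6 and 71.6. For 4 H3 regions it was 40.1 and 46.3 against 62.8 and 57.9, and for 5 H4 regions 59.4 and 48.7 against 75.3 and 65.0. Medians of the groups overlapped for H1, H2A and H2B and did not for H3 and H4. The medians of all gene-end regions in all 4 libraries did not overlap either, at 56.5 and 68.2 against 79.5 and 87.8. Among single H3 or H4 regions, only those of H4C3, H4C5 and H3C8 with H2BC10 had no overlap in percentile.

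Fold gave a fuller separation than rank. Its median over the 19 regions was 5.47 and 5.76 in the ACSS2i libraries, against 5.94 and 7.11 in the DMSO libraries, where all gene-end regions had 4.89 and 4.92 against 6.96 and 10.0. Both ACSS2i folds lay below both DMSO folds in 9 of 19 regions (83.9% of all such regions) and above them in 1, that of H2BC4 and H2AC6 (0.267%). Fragments at the summit had medians of 19 and 24 in the ACSS2i libraries, with ranges of 14 to 30 and 14 to 47. In the DMSO libraries the medians were 36 and 55, with ranges of 21 to 61 and 24 to 92. Both ACSS2i counts lay below both DMSO counts in 19 of 19 regions (88.1% of all such regions). Since read depth is unknown and background coverage differs between libraries, a difference in fragments cannot by itself be read as a difference in accessibility.

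**Figure D3:**
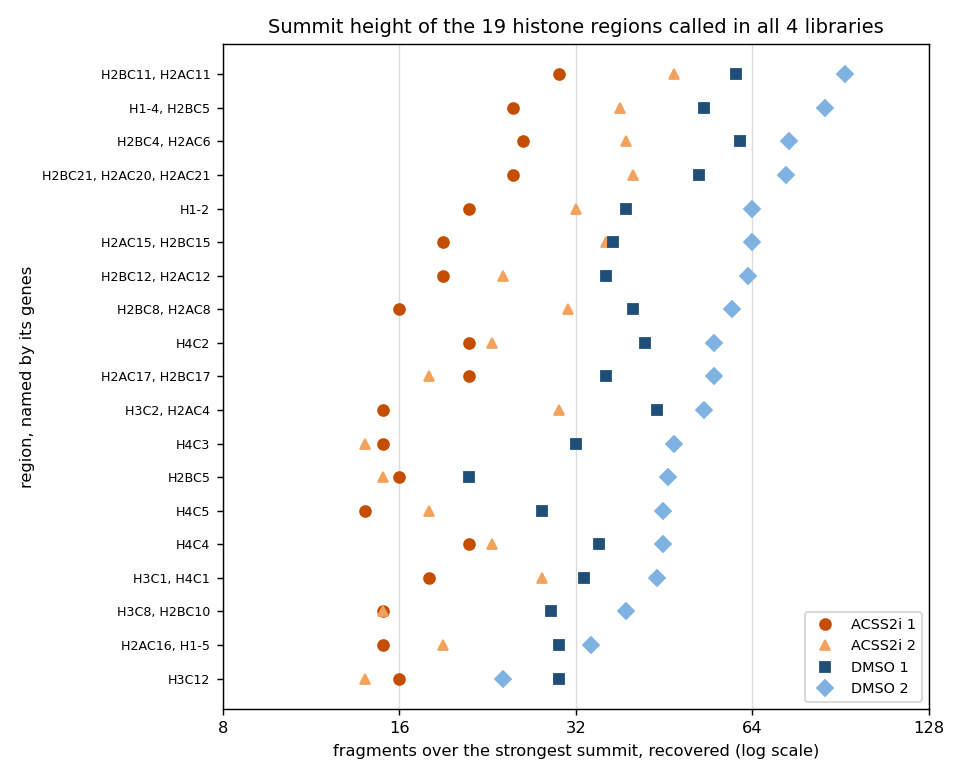
Fragments at the strongest summit (horizontal, log scale) in each of the 19 histone regions found in all 4 libraries (rows), 1 point per library. Both ACSS2i points lie left of both DMSO points in 19 of 19 rows; medians were 19 and 24 with ACSS2i, and 36 and 55 with DMSO; read depth is unknown and background coverage differs between libraries.

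Divided by each library's background coverage, the median summit pileup was 8.20 and 7.59 times background in the ACSS2i libraries, against 17.5 and 31.5 times in the DMSO libraries. All gene-end regions had 8.64 and 9.48 against 19.4 and 47.5. The ACSS2i values lay below the DMSO values in 19 of 19 histone regions and in 99.7% of all regions. The local background around the histone summits, on the same scale, was 1.04 and 1.12 in the ACSS2i libraries, against 2.55 and 3.49 in the DMSO libraries, where all regions had 1.43 and 1.63 against 2.36 and 4.31. A summit's fold is taken over this local background, which was also lower with ACSS2i.

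Histone peaks were wide. Their median width in the 19 regions was 806 and 1352 bp in the ACSS2i libraries, against 1971 and 1876 bp in the DMSO libraries, where all gene-end regions had 539.5 and 742 bp against 1023 and 1248 bp. Both ACSS2i widths lay below both DMSO widths in 15 of 19 regions (82.1% of all such regions). The median number of summits per histone peak was 1 and 2 with ACSS2i, against 3 and 3 with DMSO, and over all regions 1 and 1 against 1 and 2.

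The 10 genes with a DMSO 1 and DMSO 2 peak and none in the ACSS2i libraries were H2AC19, H3C6, H1-3, H3C7, H2BC9, H2BC13, H2AC13, H4C11, H3C11 and H4C13. H3C6 (chr6:26222859-26224364) had the highest percentile of them in DMSO 1, with folds of 7.64 and 6.97, percentiles of 69.9 and 43.4, and 27 and 24 fragments in DMSO 1 and DMSO 2. H2AC19 (chr1:149848868-149850601) had folds of 6.54 and 9.47 and 19 and 29 fragments there. H1-3 had folds of 4.76 and 6.52 with percentiles of 28.6 and 38.1, and the pair H2BC13 and H2AC13 had 4.19 and 6.18 with percentiles of 20.1 and 36.2. The others were near the bottom of the DMSO lists in at least 1 library.

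Among those weaker losses, H4C11 had percentiles of 22.7 and 1.15 in DMSO 1 and DMSO 2. The region of H3C11 and H4C13 had percentiles of 0.159 and 10.95, and the region of H3C7 and H2BC9 found in both DMSO libraries had 5.57 and 9.56. H3C7 and H2BC9 also shared a stronger region in DMSO 2 only, at percentile 29.1 with 20 fragments. Over the 7 regions in the DMSO libraries only, the median percentile was 22.7 and 36.2, against 75.9 and 67.5 in the same libraries for the 19 regions in all 4. Most of the lost regions thus stood low in the DMSO ranking, while those of H3C6 and H2AC19 stood higher. Which genes count as lost rested on ACSS2i 2: without it, 19 of 50 were lost (38.1% of all such genes). With peaks held to a −log10 q of at least 5, 8 of 42 were lost (29.8% of all such genes).

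Regions found in ACSS2i 2 and both DMSO libraries had percentiles of 9.47 to 70.2 in ACSS2i 2. H4C8 had 24 fragments in ACSS2i 2, against 32 and 46 in DMSO 1 and DMSO 2, with percentiles of 70.2 against 76.3 and 71.1. The region at H2BC7, H2AC7 and H3C4 had 26 fragments in ACSS2i 2, against 36 and 48 in the DMSO libraries, with percentiles of 69.6 against 57.4 and 50.1. H4C16, alone on chromosome 12 (chr12:14769754-14771224), had 18 fragments in ACSS2i 2, against 32 and 31 in the DMSO libraries. The regions of H2BC18 with H3C13 and of H2AC18 with H4C15 had percentiles of 23.1 and 9.47 in ACSS2i 2. In ACSS2i 1 none of the genes named so far in this paragraph had a peak. Another such region lay near H3C8 and H2BC10, at percentile 15.8 in ACSS2i 2, and both genes had a different region in all 4 libraries.

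No peak was found near 15 members (21.4%, against 39.6% of all genes): H4C14, H3C14, H3C15, H2AC25, H2BC26, H2AC1, H2BC1, H1-1, H1-6, H2BC6, H4C6, H4C7, H4C9, H4C12 and H2BC12L. H1-6, H2AC1 and H2BC1 are known as testis histones. Some members are near-identical copies. The promoter windows of H4C14 and H4C15 were identical over 300 of 300 bases, those of H3C14 and H3C15 over 296 of 296 at an offset of 4, and those of H2AC18 and H2AC19 over 299 of 299 at an offset of 1. H4C11 and H4C12 matched at 295 of 300 bases. None of these 8 windows lay in a peak in any library. Reads that lie wholly within identical sequence cannot be assigned to 1 copy, their handling by the authors is not stated, and their part in the absent peaks was not tested. The peaks near H2AC18, H2AC19 and H4C15 had their summits outside the copied windows, -904 to -745 bp from the nearest start, upstream of it.

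In the first chromosome 6 cluster (268.5 kb), 17 and 21 of 32 genes had a peak in the ACSS2i libraries, against 25 and 27 in the DMSO libraries. The second (761.6 kb) had 11 and 11 of 21 against 16 and 19, and the chromosome 1 cluster 3 and 7 of 11 against 8 and 8. As regions, the counts were 12 and 18 against 21 and 21 in the first cluster, 6 and 6 against 9 and 11 in the second, and 1 and 3 against 4 and 5 on chromosome 1. Losses of a gene's peak numbered 4 of 25, 5 of 16 and 1 of 8 in that order, where 18.9% of all such genes were lost; no test between clusters was made. Most peaks in the first cluster lay near histone genes, 15 of 16 and 20 of 24 in the ACSS2i libraries and 21 of 27 and 21 of 29 in the DMSO libraries. In the second, 7 of 15 and 7 of 18 did in the ACSS2i libraries, against 10 of 34 and 12 of 41 in the DMSO libraries. The pairs H2AC1 with H2BC1 and H2AC25 with H2BC26, and H2BC12L, had none.

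Using the promoter window, for which strand is known, 20 and 31 of 64 genes had a window that overlapped a peak in ACSS2i 1 and ACSS2i 2. In DMSO 1 and DMSO 2, 37 and 43 genes had one. As shares these were 31.3% and 48.4% with ACSS2i and 57.8% and 67.2% with DMSO. Of all 15843 genes with a window, the shares were 31.4% and 40.6% (ACSS2i) and 52.8% and 60.8% (DMSO). At the start itself, the histone share thus stood at the background in ACSS2i 1 and above it in the other 3 libraries, by a smaller margin than at gene ends. Of the 37 genes with a window in a peak of both DMSO libraries, 6 had none with ACSS2i, where 20% of all such genes had none. The 6 were H1-3, H1-5, H2AC13, H2BC13, H2BC9 and H3C6. H1-5 kept a gene-end peak in all 4 libraries but lost the peak over its start. H1 genes with a window in a peak numbered 0 and 2 of 6 with ACSS2i, against 4 and 4 with DMSO. H3 genes with one numbered 1 and 4 of 11 against 5 and 8.

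Counted by gene, 20 had a window in a peak in all 4 libraries and 21 had one in a peak in none. The octamer was in 13 of the 20 and in 4 of the 21, TATAAA in 16 and 13, CCAAT in 17 and 16, and the H1 box in 1 and 4. Of the 20, 7 were H2A and 9 H2B genes, the types that mostly carry the octamer. A match is a description of these letters and not of a factor's binding.

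In the 11 head-to-head H2A and H2B pairs with both starts in the promoter table, which lie 194 to 248 bp apart, a peak lay between the starts in 6 and 7 pairs in the ACSS2i libraries, against 8 and 9 in the DMSO libraries. It covered both starts in 4 and 6 pairs with ACSS2i, against 8 and 9 with DMSO. No share over other gene pairs is given. Peaks were also narrower in both ACSS2i libraries in 82.1% of all gene-end regions in all 4 libraries, so these counts are not read as particular to histone pairs. Among the 11, those with a peak between the starts in all 4 libraries were H2BC21 with H2AC20, H2BC4 with H2AC6, H2BC8 with H2AC8, H2BC11 with H2AC11, H2AC15 with H2BC15, and H2AC17 with H2BC17. H2AC17 with H2BC17 had it over both starts in the DMSO libraries only, and H2AC25 with H2BC26 and H2AC1 with H2BC1 had none. H2BC12 and H2AC12, also neighbours with a shared region in all 4 libraries, are not counted, since H2AC12 has no entry in that table.

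Most summits lay within 500 bp of a start. Regions were taken within 1000 bp of a gene end, which favours such nearness, and no value for all genes is given. Over the regions with a member start known, the median signed distance from the strongest summit to the nearest start was 89 and -21 bp in 17 and 26 regions of the ACSS2i libraries, and 38 and 17 bp in 33 and 36 regions of the DMSO libraries, negative values being upstream. Upstream and downstream distances offset each other in a signed median. The upper quartile of the signed distance was 654 and 867 bp with ACSS2i, and 609 and 142 bp with DMSO. Within 500 bp of a start lay 11 of 17 and 16 of 26 summits with ACSS2i, against 21 of 33 and 30 of 36 with DMSO.

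**Figure D4:**
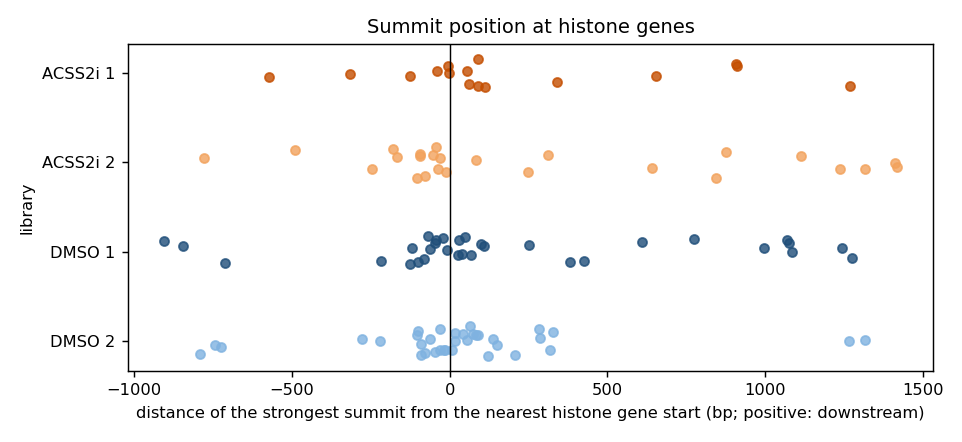
Distance in bp from the strongest summit to the nearest histone gene start, 1 point per region and 1 row per library, with the vertical scatter for legibility only; negative is upstream, and the H2BC5 region far from any start lies outside the axis. Summits within 500 bp numbered 11 of 17 and 16 of 26 with ACSS2i, and 21 of 33 and 30 of 36 with DMSO.

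Peaks between 500 and 1000 bp from a gene end were the nearest for 2 and 3 members in the ACSS2i libraries and for 3 and 5 in the DMSO libraries. In ACSS2i 1, H2AC4 and H3C8 had their peaks 793 and 845 bp from a gene end, and in ACSS2i 2 those of H3C13, H2AC18 and H4C15 lay 701 to 768 bp away. In DMSO 1 they were those of H3C13, H3C7 and H4C13, 581 to 828 bp away, and in DMSO 2 those of H2AC18, H4C15, H2BC3, H3C3 and H4C13, 607 to 847 bp away. Just outside it, H3C10 had a DMSO 1 peak 1472 bp away with a fold of 4.19.

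Lists of equal length gave another picture. When each library was held to its 16400 strongest peaks, 31 and 32 histone genes had a peak in the ACSS2i libraries, against 35 and 17 in the DMSO libraries, where all genes had 32.5% and 34.5% against 34.8% and 39%. As shares of histone genes these are 44.3% and 45.7% with ACSS2i, and 50% and 24.3% with DMSO. DMSO 2 had the fewest although its share of all genes was the highest of the 4. At that length none of the 17 genes with a peak in each DMSO library lacked one in both ACSS2i libraries (5.29% of all such genes), and H4C5 and H3C12 had one in an ACSS2i library alone (2.86% of members, against 2.76% of all genes). DMSO 1 still lay above both ACSS2i libraries, so the reversed order of the mean gene counts came with DMSO 2 alone. The reversed difference in median percentile came with both DMSO libraries. Over the 8 regions then in all 4 libraries, the medians were 71.6 and 83.2 with ACSS2i, against 57.0 and 35.4 with DMSO. The cause was not tested.

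Other genes of histone supply were read the same way. Of 24 regulators and processing factors of histone genes, 14 and 19 had a gene-end peak in the ACSS2i libraries, against 22 and 24 in the DMSO libraries, where all genes had 32.5% and 40.7% against 52.6% and 60%. Lost were 3 of 22 (18.9% of all such genes): LSM11 and CPSF2, of the machinery that cuts histone pre-mRNA, and ERI1, the nuclease that trims histone mRNA. NPAT, the coactivator of histone genes, had percentiles of 84.1 and 82.5 with ACSS2i, against 90.8 and 97.3 with DMSO. SLBP had 73.4 and 64.6 against 98.2 and 97.8, and HINFP, an activator of H4 genes, had 71.1 and 82.7 against 88.2 and 91.5. These 3 were named for their roles and after their values were seen. Of the 14 in all 4 libraries, 9 had both ACSS2i percentiles below both DMSO percentiles, where 61% of all gene-end regions did, and CCNE2, CDK2, CRAMP1, NASP and ASF1B overlapped. CDK2 and the histone chaperone ASF1B were the strongest, with 98.1 and 99.5 against 99.7 and 98.7, and 98.4 and 99.5 against 99.4 and 99.8.

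Of 12 replication-independent histone genes, which are expressed outside S phase as well, 8 and 8 had a peak with ACSS2i, against 10 and 10 with DMSO, where all genes had 32.5% and 40.7% against 52.6% and 60%. MACROH2A1 was lost (1 of 10, against 18.9% of all such genes), and MACROH2A2 and H3-5 had no peak. H2AZ2 had percentiles of 97.9 and 89.7 against 98.8 and 99.0, and H3-3B had 83.1 and 91.3 against 83.8 and 82.4. The groups did not overlap for H2AZ2 and did for H3-3B. Of the 7 in all 4 libraries, 4 had both ACSS2i percentiles below both DMSO percentiles, where 61% of all gene-end regions did.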

How the data were processed

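Open chromatin was measured by ATAC-seq in 786-O cells, with 2 ACSS2i and 2 DMSO libraries, on build hg38 per the submitters' processing notes. Those notes also list, with no role or settings, MACS2 2.1.2, deepTools 3.5.0, DiffBind, bedtools, Bowtie2, Picard 2.18.26, bcl2fastq 2.17, SAMtools 1.9 and Trimmomatic 0.38. How peaks were called and filtered is not stated there. The deposited lists were made by the authors per library and hold, for each summit, a score of 10 times the −log10 q, a fold enrichment ratio, a −log10 p and a −log10 q, the last at least 2 in each list. The deposited summit offsets, in bp, were used for position. Read totals are not in the lists, so depth is unknown and no interval for it is given.

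Summits with the same interval were joined into 1 peak that takes its strongest summit. Fragments at the summit and the local background were recovered by solving fold and −log10 p together under a Poisson upper tail, and matched the deposited values to within 0.001 for at least 99.99% of summits. The library's background coverage is the lowest local background recovered. Genes were RefSeq protein-coding genes, of which 64 histone genes had a promoter entry. Regions were peaks of the 4 libraries merged at 1 bp of overlap. Counts and medians were compared by two-sided exact permutation of library labels, which allows no p below 0.333 with 2 against 2 libraries. The method was tested on simulated data, but the settings and outcome are not given here, so no result above rests on that. Named with values were the 2 regions of each type with the highest lowest-library percentile, the lost genes and the genes gained, with members in all or no library by symbol and, of other lists, the lost, absent and 2 strongest. Other regions and regulators were named after their values were seen. The genes and lists were chosen with earlier results of these data known. Alternatives were the distance limit, a −log10 q of at least 5, lists cut to equal length, another merging overlap, percentiles over other sets, each library left out, and a replicate block. Tools were Python 3.11.15, pandas 2.3.3, NumPy 2.4.6, SciPy 1.17.1 and matplotlib 3.10.9.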

Additional observations from a re-analysis of the deposited data

How the results depend on the processing

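With lists of 16400 peaks, the ratio of histone genes with a peak, ACSS2i over DMSO, was 1.21 (31.5 against 26, exact permutation p = 1) in place of 0.676. The ratio of regions was 1.29 (20 against 15.5) in place of 0.644, and 0 genes were lost. The difference in median percentile was 31.2 points in place of -3.99, over the 8 regions then left in all 4 libraries. With percentiles taken over gene-end peaks alone that difference was 9.95 points (64.5 against 54.5). The cause was not tested. Leaving out 1 library in turn gave gene ratios of 0.590 to 0.762, region ratios of 0.533 to 0.767, percentile differences of -8.76 to 0.26 (0.26 without DMSO 1) and 10 to 19 lost genes (19 without ACSS2i 2, 15 without DMSO 1). Distance limits of 500 and 2000 bp gave gene ratios of 0.680 and 0.670 and 8 and 11 lost genes. A −log10 q of at least 5 gave a ratio of 0.678, a percentile difference of -8.19 (over 14 regions) and 8 lost genes, 3 of them among the 10. A replicate block left the ratios at 0.676 and 0.644, each with an exact permutation p of 0.5, the smallest 2 pairs allow. Same-numbered libraries deviated together with a correlation of 0.053 over 5238 regions, so the numbers were not taken to pair the libraries. No p can pass 0.05 in this design, so a p above it says nothing on stability, and unknown depth limits every difference in peak number and fragments.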

Other observations

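Between H2AC1 and H2BC17 on chromosome 6, the stretches between clusters included, and between H2BC18 and H2AC21 on chromosome 1 lie 21 other protein-coding genes. Among them, between both larger chromosome 6 clusters, are the butyrophilins (BTN), immunoglobulin-family membrane proteins. Of the 21, 5 and 8 had a gene-end peak in the ACSS2i libraries, against 12 and 12 in the DMSO libraries, where all genes had 32.5% and 40.7% against 52.6% and 60%, and 9 had none in any library. BTN2A1, HMGN4, ZNF322 and ZNF184 had one in all 4. The peaks of SLC17A3, HFE and BTN3A3 were in both DMSO libraries and in neither ACSS2i library, 3 of 12, against 18.9% over the whole genome.

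HMGN4, a nucleosome-binding protein gene, had percentiles of 61.4 and 68.4 in the ACSS2i libraries, against 90.9 and 74.9 in the DMSO libraries. ZNF184, a zinc finger gene, had 49.6 and 70.2 against 90.6 and 89.0. TRIM38 had a peak in ACSS2i 2 at percentile 70.2, against 79.7 and 88.7 in the DMSO libraries, and none in ACSS2i 1. For 4 of the 4 genes with a peak in all 4 libraries, BTN2A1, HMGN4, ZNF322 and ZNF184, both ACSS2i percentiles lay below both DMSO percentiles, as they did for 5 of the 19 histone regions in all 4 libraries and for 61% of all gene-end regions in all 4 libraries.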
